A study of Mus musculus with 8 samples.

Results

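The genes of fatty acid oxidation were examined in the brown adipose tissue of mice kept in the cold, a tissue specialised in producing heat. The list held 31 genes, chosen by name as the enzymes and carriers of mitochondrial and peroxisomal fatty acid oxidation, and 30 of them had a probe set among the 21115 on the array. Hadhb, the beta subunit of the trifunctional protein, was not analysed here. By known location, 20 of the 30 were mitochondrial, 5 were peroxisomal (Ehhadh, Hsd17b4, Acaa1a, Acaa1b and Decr2), and 5 belong to several compartments or to the cytosol (Crat, Eci2, Acad11, Mlycd and Acot1).

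Fatty acids reach the mitochondrial matrix as carnitine esters and are then shortened by a repeated cycle of dehydrogenation, hydration, a further dehydrogenation and thiolysis, with the electrons of the first step passed through electron transfer flavoprotein to the respiratory chain. Peroxisomes run a similar cycle with separate enzymes, mainly on very long and branched chains, and hand shortened products on. In brown adipocytes this oxidation supplies the electrons that uncoupled respiration turns into heat, and many of these genes are known targets of the PPAR family of nuclear receptors.

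The tested animals were 4 GRBATKO mice, named for a knockout of the glucocorticoid receptor (GR) in brown fat (BAT), and they were set against 4 control mice that the sample labels call wild type and the design text calls Flox. All 8 mice were 16 to 20 weeks old when cold exposure began and spent 1 week at 5 °C; no mice kept warm were analysed here. The sources used here give neither the Cre driver nor the sex of the mice. The labels number the mice without saying how tissue was taken, and p-values therefore cover the spread among these arrays alone, which may be partly technical. Expression was read with the Affymetrix Mouse Gene 1.1 ST platform, whose probes lie along each transcript, and values below are log2 of the deposited intensity, a scale on which 1 unit is a doubling. Intensity depends on the probes as well as on the transcript, so the rank of a probe set on an array, used below to check the tissue and to choose 1 gene per role, is only a rough guide to its level.

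The labels' extraction protocol names peritoneal macrophages, against a tissue field of brown fat. All 8 measured brown adipocyte markers lay above the 75th percentile of intensities, with Ucp1 at rank 1 or 2 on every array, while 5 of 8 peritoneal macrophage markers lay below the array median and 0 above the 75th percentile. Of 12 general macrophage markers, 1 lay below the median and 4 above the 75th percentile, with mean deviations of -0.26 to 0.40 in GRBATKO mice and -0.46 to 0.16 in control mice. Nr3c1, the glucocorticoid receptor gene, had log2 intensities of 7.81, 7.72, 7.61 and 7.83 in GRBATKO mice, against 8.56, 8.67, 8.68 and 8.51 in control mice (difference -0.86, SE 0.08, limma adjusted p = 0.00697). Its adjusted p was above the threshold with the ordinary t statistic (0.071), with a replicate block (0.157), without GRBATKO 2 (0.0525), without control 1 and control 4 (0.0624) and without control 3 and GRBATKO 4 (0.156). The groups did not overlap for this gene; the sources used here do not place its probes relative to the deleted part. Pearson correlations over all probe sets were 0.990 to 0.993 both within and between groups. Array positions in the labels put GRBATKO arrays in rows C and D and control arrays in rows A and B, so genotype cannot be told apart from row; columns 5 and 7 each held both groups. Control 1 and control 4 had a higher 25th percentile (3.03 and 3.05) than the other arrays (2.84 to 2.90), and results that turn on them are given with and without them. Skeletal muscle markers (16 measured, mean deviation from the 8-array average) ran from -0.80 to 1.16 in GRBATKO mice and from -0.82 to 2.58 in control mice, highest in GRBATKO 4 and control 3. Adipocyte markers (8 measured) ran from 0.04 to 0.32 in GRBATKO mice and from -0.25 to -0.04 in control mice. These adipocyte marker means did not overlap, with every GRBATKO mouse above every control mouse. Of these 8 genes, 1 had a limma unadjusted p under 0.05, against 8.62% of all probe sets. An adjusted p under 0.05 was found in 0 of the 8, against 0.0237% of all probe sets. The part of adipocyte markers in the differences below was not tested. Brown adipocyte marker means overlapped, from -0.13 to 0.08 in GRBATKO mice and from -0.11 to 0.17 in control mice.

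No gene of fatty acid oxidation passed the threshold of adjusted p under 0.05 in limma's moderated test over all 21115 probe sets, where 5 probe sets did (0.0237%), 1 higher (0.00474%) and 4 lower (0.0189%). The count among the 30 was also 0 with the ordinary t statistic. At an unadjusted p under 0.05, 4 of the 30 (13.3%) were called, 2 higher (Etfb and Acaa1a) and 2 lower (Acot2 and Ehhadh), against 8.62% of all probe sets (4.22% higher and 4.4% lower). Groups of mice did not overlap in 4 of the 30 (13.3%), 3 higher (Etfb, Acaa1a and Hsd17b4) and 1 lower (Acot2), against 5.64% of all probe sets (3.22% higher and 2.42% lower). Among probe sets at or above the 40th percentile of mean intensity, these shares were 9.52% and 6.99%. Each count among the 30 is of 4 genes, and the first ran from 0 to 6 over the alternatives.

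The mitochondrial genes lay close to equality. Of the 20, 10 had a higher and 10 a lower mean in GRBATKO mice, and the median log2 difference was 0.00 (range -0.16 to 0.15), against a median of -0.0022 over all probe sets. Probe sets at or above the 40th percentile of mean intensity, a level all 20 reached, had a median of 0.0286. Of those brighter probe sets, 59.4% had a higher mean, and 55.5% differed by less than 0.1 in size. In 18 of the 20 the difference was smaller than 0.1 in size (90%), against 53.4% of all probe sets; the median SE was 0.07 for these 20 and 0.11 over all probe sets. The 95% intervals of all 20 differences lay within 1.3-fold in either direction, which 59.8% of all probe sets also met. The 5 peroxisomal genes were more spread, from -0.32 to 0.37, with 3 higher, 2 lower and a median of 0.10, which was 0.0596 without control 1 and control 4. The 5 genes of several compartments or the cytosol had 1 higher and 4 lower means, with a median of -0.03. Over all 30 the intervals of Acaa1b, Ehhadh and Acot1 were the ones that reached past 1.3-fold.

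**Figure D1:**
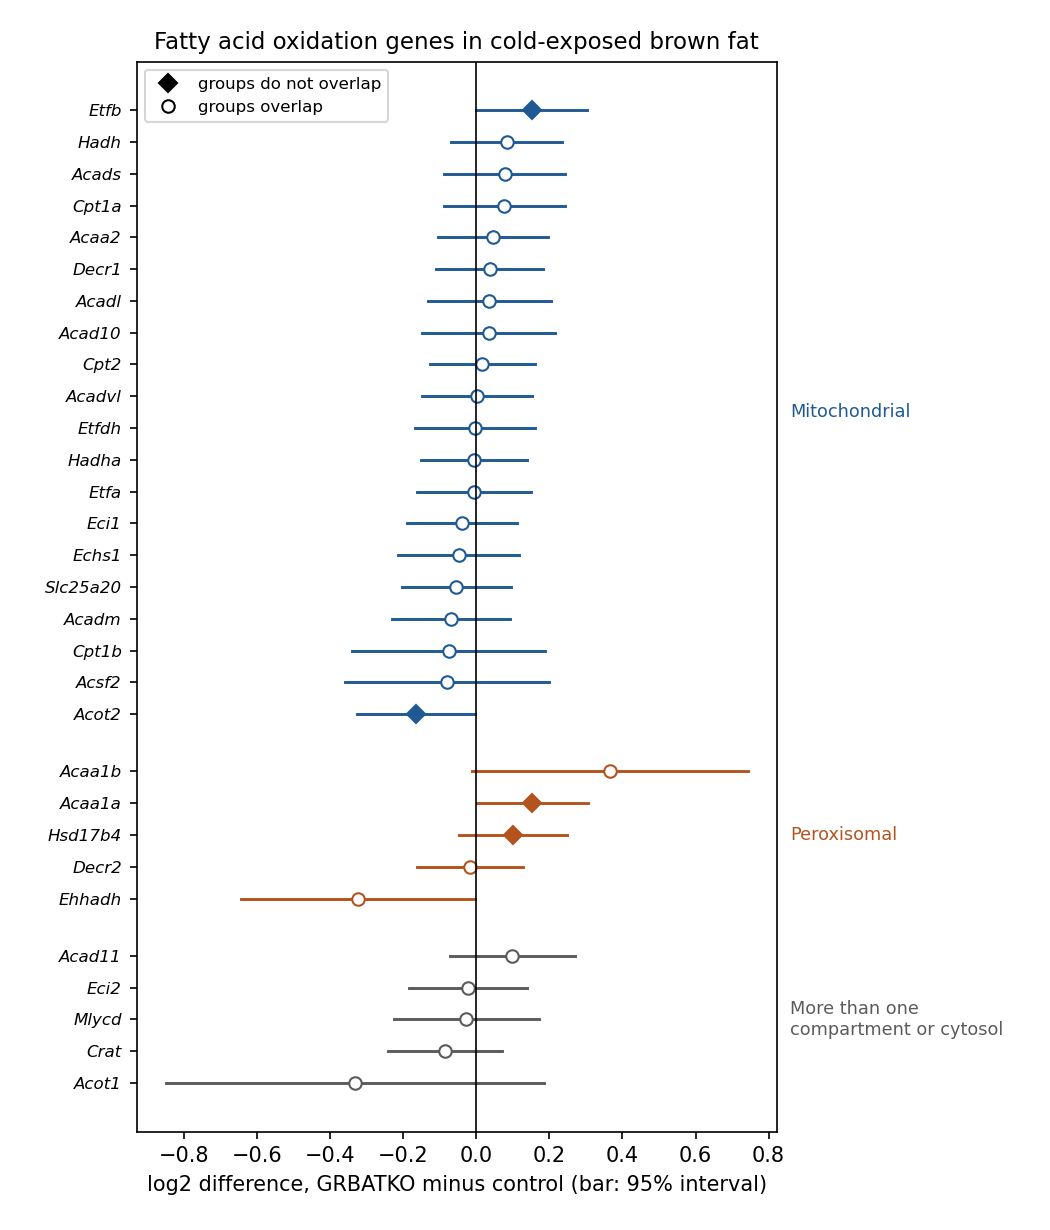
Difference in log2 intensity, GRBATKO minus control, for 30 fatty acid oxidation genes (points; n = 4 mice a group) with limma's 95% interval (bars), ordered by size within mitochondrial, peroxisomal and other genes; filled diamonds mark groups that do not overlap. Mitochondrial genes sit between -0.16 and 0.15, while Acaa1b, Ehhadh and Acot1 lie farther out with wide intervals.

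The carnitine shuttle brings long-chain acyl groups across the inner membrane, and its 5 genes differed by -0.09 to 0.08. Slc25a20, the carrier that exchanges acylcarnitine for carnitine, had 11.39, 11.48, 11.38 and 11.44 in GRBATKO mice, against 11.51, 11.51, 11.41 and 11.48 in control mice (difference -0.05, SE 0.07, limma adjusted p = 0.837). Values of the groups interleaved. Cpt1b, the muscle and brown fat form of the enzyme that commits fatty acids to oxidation, had 10.97, 11.10, 10.58 and 10.74 in GRBATKO mice, against 10.82, 10.99, 11.01 and 10.86 in control mice. GRBATKO 3 was the lowest of the 8 mice for Cpt1b; the difference was -0.08 (SE 0.12), and 0.01 without GRBATKO 3. Because Cpt1b is also a muscle gene, the muscle marker mean was tried as a covariate, and the difference was -0.07 with it. Cpt1a, the liver form, differed by 0.08 (SE 0.07), Cpt2, the matrix partner that restores acyl-CoA, by 0.02 (SE 0.06), and Crat, which transfers short acyl groups to carnitine in mitochondria and peroxisomes, by -0.09 (SE 0.07).

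The acyl-CoA dehydrogenases catalyse the first step of each turn, each on a range of chain lengths. All 6 differed by less than 0.1 in size, 5 with a higher and 1 with a lower mean. Acadl, the long-chain enzyme, had 12.30, 12.28, 12.26 and 12.21 in GRBATKO mice, against 12.11, 12.35, 12.20 and 12.25 in control mice (difference 0.04, SE 0.07). The 4 GRBATKO values lay inside the control range. Acadvl, the very long-chain enzyme, differed by 0.0025 (SE 0.07), Acadm, the medium-chain enzyme, by -0.07 (SE 0.07), and Acads, the short-chain enzyme, by 0.08 (SE 0.07). Acad10 and Acad11, less studied members of the family, differed by 0.03 (SE 0.08) and 0.10 (SE 0.08).

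The later steps of the mitochondrial cycle differed as little. Hadha, the alpha subunit of the trifunctional protein, which hydrates and oxidises long chains, had 12.43, 12.42, 12.38 and 12.44 in GRBATKO mice, against 12.44, 12.47, 12.35 and 12.43 in control mice (difference -0.0051, SE 0.06, 95% interval 0.901-fold to 1.10-fold). Again the control range enclosed all GRBATKO values. Hadh, the short-chain hydroxyacyl-CoA dehydrogenase, differed by 0.08 (SE 0.07), with 12.18, 12.17, 12.16 and 12.04 in GRBATKO mice and 12.11, 12.01, 12.02 and 12.07 in control mice. GRBATKO 4 fell among the controls and the other GRBATKO mice above them; the Hadh difference was 0.11 without GRBATKO 4. Echs1, the short-chain enoyl-CoA hydratase, differed by -0.05 (SE 0.07), and the thiolase Acaa2, which releases acetyl-CoA, by 0.05 (SE 0.07).

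Electron transfer flavoprotein takes electrons from the dehydrogenases and is a dimer of an alpha and a beta subunit. Etfb, the beta subunit, had 11.04, 10.96, 10.96 and 11.02 in GRBATKO mice, against 10.76, 10.86, 10.83 and 10.92 in control mice. All 4 GRBATKO mice lay above all 4 control mice (difference 0.15, SE 0.07, unadjusted p = 0.04997, limma adjusted p = 0.579; two-sided exact permutation test, p = 0.0286, the smallest that 4 against 4 mice allow). Groups of 4 mice that do not overlap always give this permutation p, here and for genes below, so it adds nothing to the lack of overlap. Etfa, the alpha subunit, differed by -0.0066 (SE 0.07), and the difference between the subunits was not tested. Etfdh, the oxidoreductase that passes the electrons to ubiquinone, had 11.87, 11.94, 11.88 and 11.90 in GRBATKO mice, against 11.84, 12.03, 11.92 and 11.81 in control mice (difference -0.0026, SE 0.07). For Etfdh the control mice spread wider than the GRBATKO mice and enclosed them. The 4 enzymes that deal with double bonds of unsaturated chains differed by -0.04 to 0.04: Decr1, the mitochondrial dienoyl-CoA reductase, by 0.04, its peroxisomal counterpart Decr2 by -0.02, and the isomerases Eci1 and Eci2 by -0.04 and -0.02. Decr1 had 11.34, 11.37, 11.30 and 11.27 in GRBATKO mice, against 11.34, 11.25, 11.25 and 11.29 in control mice, with overlapping groups.

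Acyl-CoA thioesterases split acyl-CoA into free fatty acid and CoA, in the matrix for Acot2 and in the cytosol for Acot1. Acot2 had 11.23, 11.31, 11.39 and 11.40 in GRBATKO mice, against 11.42, 11.56, 11.51 and 11.49 in control mice. Every GRBATKO mouse lay below every control mouse (difference -0.16, SE 0.07, unadjusted p = 0.04794, limma adjusted p = 0.573; two-sided exact permutation test, p = 0.0286). Acot2 differed by -0.20 without control 1 and control 4. Acot1 had 4.48, 4.75, 4.60 and 4.31 in GRBATKO mice, against 4.25, 5.50, 4.69 and 5.02 in control mice (difference -0.33, SE 0.23, limma adjusted p = 0.723). The groups overlapped, control 1 was the lowest of all and control 2 the highest; the difference was -0.54 without control 1 and -0.12 without control 2. Acot1 values lay close to the array medians of 4.42 to 4.44, and no background level is known for them. Acot1 and Acot2 are close paralogs and neighbours on chromosome 12, with 0 protein-coding genes between them in the annotation. The identity of their transcripts was not computed, so how far their probes share signal is uncertain. Mlycd, which removes the Cpt1 inhibitor malonyl-CoA, differed by -0.03 (SE 0.09). Acsf2, a mitochondrial acyl-CoA synthetase, had 10.69, 10.43, 10.82 and 10.63 in GRBATKO mice, against 10.91, 10.46, 10.62 and 10.90 in control mice. Its groups overlapped (difference -0.08, SE 0.12), and the difference was 0.10 without control 1 and control 4, its highest controls.

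Differences in the peroxisomal cycle ran from -0.32 for Ehhadh to 0.37 for Acaa1b, the highest of the 30 genes. Ehhadh, the peroxisomal bifunctional enzyme and a well-known PPAR target, had 8.68, 8.35, 8.86 and 8.39 in GRBATKO mice, against 8.67, 8.77, 8.96 and 9.16 in control mice. GRBATKO 2 and GRBATKO 4 lay below all controls, and GRBATKO 1 and GRBATKO 3 among them (difference -0.32, SE 0.14, 0.80-fold with a 95% interval of 0.641 to 0.998, unadjusted p = 0.04866, limma adjusted p = 0.576; two-sided exact permutation test, p = 0.143). Hsd17b4, the second bifunctional enzyme, which acts also on branched chains and bile acid precursors, had 10.85, 10.82, 10.80 and 10.81 in GRBATKO mice, against 10.63, 10.74, 10.78 and 10.72 in control mice. Its groups did not overlap, which fixes the two-sided exact permutation test at p = 0.0286. The limma test gave an unadjusted p = 0.1554 and an adjusted p = 0.700 (difference 0.10, SE 0.07). The Hsd17b4 difference was 0.06 without control 1 and control 4.

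The peroxisomal thiolases close the cycle. Acaa1a had 6.53, 6.46, 6.57 and 6.55 in GRBATKO mice, against 6.45, 6.41, 6.34 and 6.31 in control mice. GRBATKO mice all lay above control mice (difference 0.15, SE 0.07, 1.11-fold, unadjusted p = 0.0486, limma adjusted p = 0.576; two-sided exact permutation test, p = 0.0286). After repeated quantile normalization the Acaa1a difference was 0.11. Acaa1b had 6.94, 7.65, 7.24 and 7.56 in GRBATKO mice, against 7.19, 6.88, 6.71 and 7.14 in control mice. GRBATKO 2, 3 and 4 lay above all controls and GRBATKO 1 among them (difference 0.37, SE 0.17, 1.29-fold with a 95% interval of 0.992 to 1.67, unadjusted p = 0.05571, limma adjusted p = 0.600). The Acaa1b difference ran from 0.21 without control 3 and GRBATKO 4 to 0.55 without control 1 and control 4. Acaa1a and Acaa1b are close paralogs on chromosome 9 with 4 protein-coding genes between them, and the share of signal their probes have in common is not known.

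**Figure D2:**
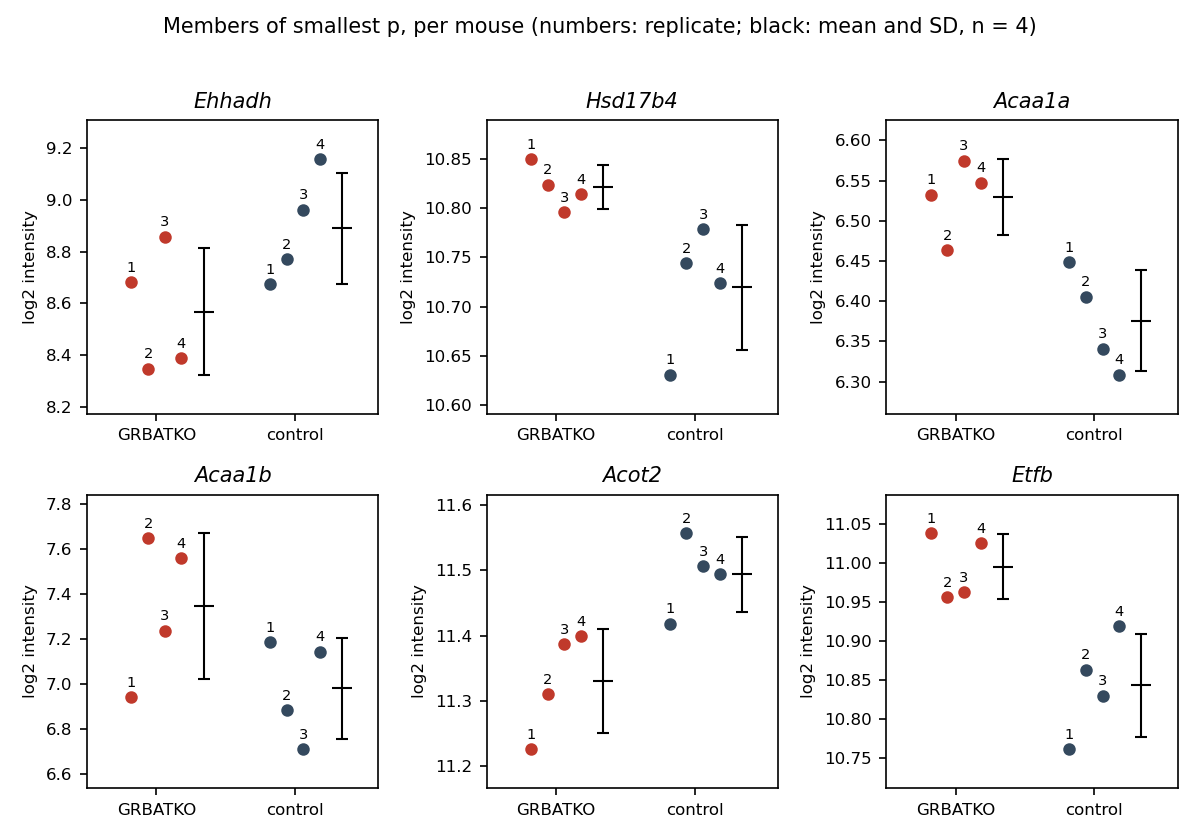
Log2 intensity of 6 genes, GRBATKO mice left and control mice right; numbers are replicates, black bars mean and SD (n = 4). Acot2, Etfb, Acaa1a and Hsd17b4 show groups that do not overlap, while those of Ehhadh and Acaa1b do.

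The differences of Ehhadh and Acaa1b were larger in size in array column 7 than in column 5. In array column 7, which held mice 2 and 4 of each group, Ehhadh differed by -0.60 and Acaa1b by 0.59, against -0.05 and 0.14 in column 5, which held mice 1 and 3. Acot1 differed by -0.73 in column 7 and by 0.07 in column 5. Acot2 (-0.17 and -0.16), Acaa1a (0.15 and 0.16) and Hsd17b4 (0.09 and 0.12) differed alike in columns 7 and 5, and Etfb by 0.10 and 0.20. A genotype by column term, tested with limma over all probe sets after these values were seen, gave adjusted p = 1 for each of the 30 genes, with unadjusted p = 0.0419 for Acot1, unadjusted p = 0.0508 for Ehhadh and unadjusted p = 0.135 for Acaa1b. That term had an unadjusted p under 0.05 in 1 of the 30 genes, against 2.85% of all probe sets. With 2 mice of each group in a column, the columns also cannot be told apart from the mice they held.

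**Figure D3:**
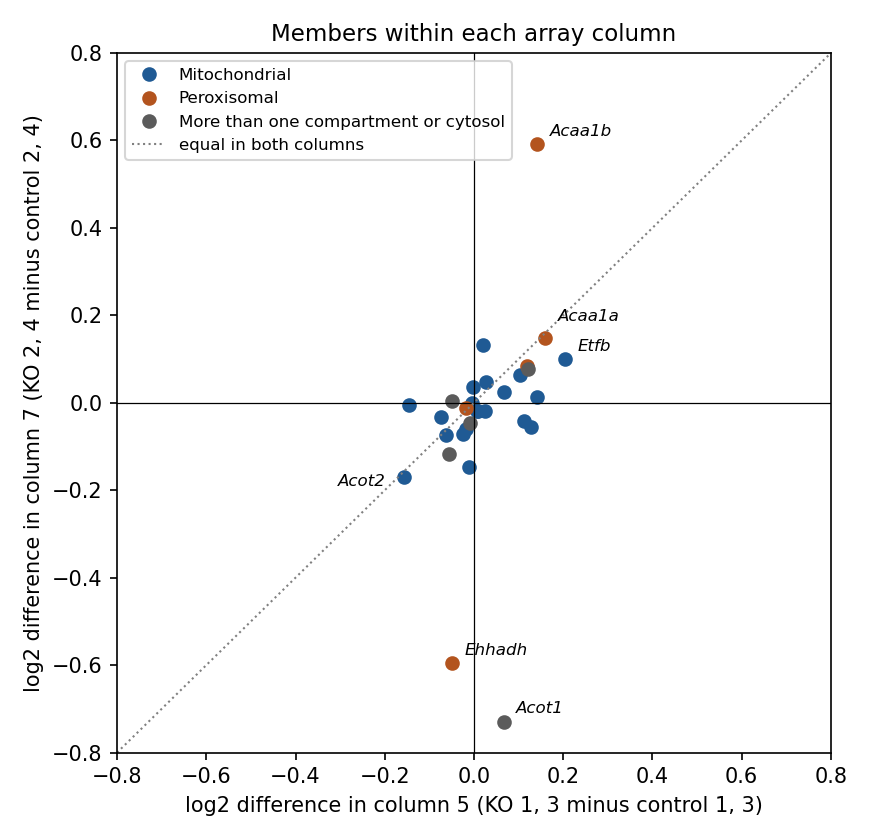
Difference in log2 intensity (GRBATKO minus control) in array column 7 (vertical, mice 2 and 4 of each group) against column 5 (horizontal, mice 1 and 3) for the 30 genes, coloured by compartment; the dotted line marks equal differences. Acaa1b, Ehhadh and Acot1 stand off the line, at 0.59, -0.60 and -0.73 in column 7.

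Across mice, the mitochondrial genes shifted together only slightly. The median deviation of the 20 genes from their 8-mouse means was 0.01, 0.04, -0.0029 and -0.03 in GRBATKO mice, against -0.02, 0.06, -0.02 and -0.02 in control mice. Control 2 and GRBATKO 2 were the high mice of their groups. Control 2 was the highest control in 12 of the 20 (60%), against 27.2% of all probe sets, and GRBATKO 2 the highest GRBATKO mouse in 10 of the 20 (50%), against 24.7%. At the low end, GRBATKO 4 was lowest of its group in 9 of the 20 (45%, against 24.7% of all probe sets) and control 4 in 8 (40%, against 22.1%). GRBATKO 4 was also a mouse high in skeletal muscle markers (mean deviation 1.16). The muscle marker mean was 2.58 in control 3, which was lowest of its group in 3 of the 20 (15%), and -0.02 in control 4. The part of muscle content in the low values of GRBATKO 4 was not tested. Adjusting each gene for muscle markers gave a median mitochondrial difference of 0.0029, against 0.00 without that adjustment. GRBATKO 2 was the highest in lymphocyte markers (mean deviation 1.07, against -0.33 to 0.04 in the other 7 mice). The part of lymphocyte markers in the mitochondrial values was not tested. Fewer cells of a type and less RNA per cell cannot be told apart in whole tissue. The peroxisomal median was -0.04, 0.04, 0.07 and 0.04 in GRBATKO mice, against -0.03, -0.03, -0.01 and -0.02 in control mice, with GRBATKO 1 lowest of all.

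**Figure D4:**
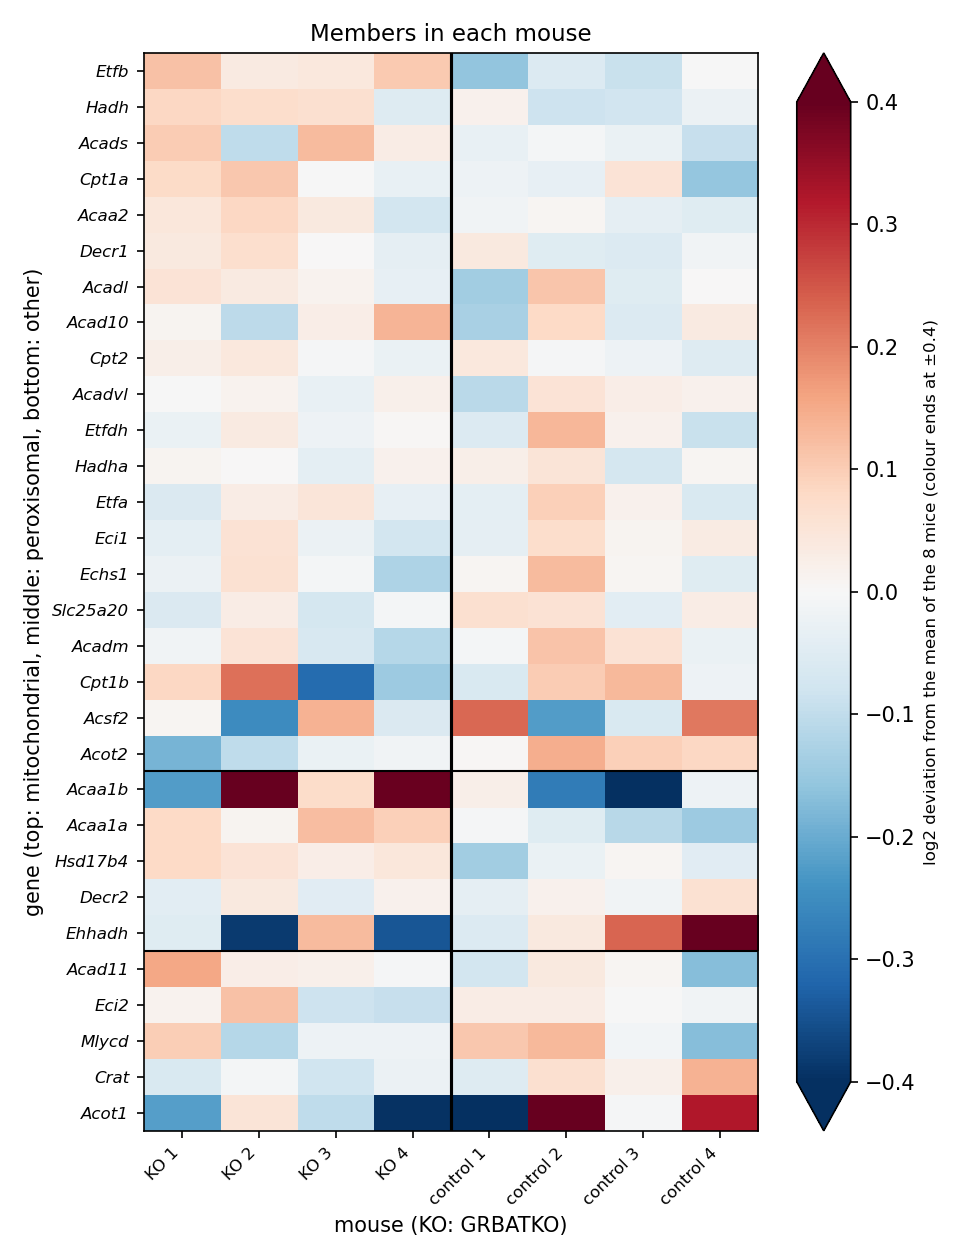
Deviation of each gene's log2 intensity from its mean over the 8 mice (colour, ending at 0.4 either way), with GRBATKO mice (KO) left of the vertical line and controls right; horizontal lines part mitochondrial, peroxisomal and other genes. Acaa1b, Ehhadh and Acot1 hold the strongest colours, and control 2 is above average in most mitochondrial genes of the lower rows.

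The promoters of these genes were searched for letters of the receptors in question, in a window of 250 bases before to 50 after each gene's start (RefSeq, GRCm38.p6). A promoter was at hand for 26 of the 31 genes, and only the first listed start of each gene was searched. The 32851 promoters used for comparison covered 27025 gene symbols, some with several starts. The core of the palindromic glucocorticoid receptor element, ACANNNTGT, which reads the same on both strands, stood in 3 of the 26 (11.5%), against 6.85% of 32851 promoters of the table. These 3 are shown because the study removed the receptor that reads this element; capitals mark the core.
Hadh (chr3:131272052-131272351, minus strand): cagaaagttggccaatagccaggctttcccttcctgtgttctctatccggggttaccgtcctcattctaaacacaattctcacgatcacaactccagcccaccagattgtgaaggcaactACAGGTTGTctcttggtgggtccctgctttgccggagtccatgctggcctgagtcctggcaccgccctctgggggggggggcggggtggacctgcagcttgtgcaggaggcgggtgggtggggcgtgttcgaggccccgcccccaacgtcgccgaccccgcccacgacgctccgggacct
Acad11 (chr9:104063474-104063773, plus strand): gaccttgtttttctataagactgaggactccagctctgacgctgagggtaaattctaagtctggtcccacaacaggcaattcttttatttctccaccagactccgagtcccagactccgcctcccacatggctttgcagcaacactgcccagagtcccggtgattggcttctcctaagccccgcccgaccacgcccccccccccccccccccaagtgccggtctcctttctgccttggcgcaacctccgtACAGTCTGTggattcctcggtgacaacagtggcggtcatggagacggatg
Acot1 (chr12:84009252-84009551, plus strand): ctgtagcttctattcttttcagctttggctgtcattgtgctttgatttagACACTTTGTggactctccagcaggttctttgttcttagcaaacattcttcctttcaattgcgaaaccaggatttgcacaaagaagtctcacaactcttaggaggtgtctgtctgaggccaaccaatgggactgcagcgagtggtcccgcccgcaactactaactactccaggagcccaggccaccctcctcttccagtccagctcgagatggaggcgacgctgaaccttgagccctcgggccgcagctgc
The genes with this core differed by 0.08 (Hadh), 0.10 (Acad11) and -0.33 (Acot1), none past the threshold. For the PPAR element, only exact direct repeats of AGGTCA with 1 base between were searched, on both strands. They stood in 0 of the 26 promoters and in 0.0396% of all. A string that rare was unlikely to be met in 26 promoters, and elements that depart from these letters were not counted. The 0 therefore does not show that these genes lack the element. A lone AGGTCA on either strand stood in 4 of the 26 (15.4%: Acadm, Echs1, Acadvl and Cpt1a), against 16.3% of all. A match is a run of letters, not a bound site, and elements outside these windows were not searched.

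Other genes of the pathway, from lists written down beside the 30, were also without a call. The first list was mixed, with 28 measured genes, and not all of them act in mitochondria. It held genes of fatty acid uptake and activation, thioesterases, Acacb, Cpt1c, and genes of branched-chain and propionate oxidation, among others. Of the 28, 0 passed, and at an unadjusted p under 0.05 there were 4 lower and 0 higher (14.3%, against 8.62% of all probe sets). The median difference of this list was -0.01. Acsm3, a medium-chain acyl-CoA synthetase, had 8.01, 7.40, 7.70 and 7.95 in GRBATKO mice, against 8.26, 8.47, 8.22 and 8.81 in control mice. Its groups did not overlap (difference -0.67, SE 0.16, 0.628-fold, limma adjusted p = 0.316). Mcee, the methylmalonyl-CoA epimerase of propionate breakdown, had 10.43, 10.60, 10.39 and 10.54 in GRBATKO mice, against 10.71, 10.84, 10.69 and 10.73 in control mice, again apart (difference -0.25, SE 0.08, limma adjusted p = 0.442). Ivd, isovaleryl-CoA dehydrogenase of leucine breakdown, differed by -0.20 (SE 0.09), and Pcca, a subunit of propionyl-CoA carboxylase, by -0.16 (SE 0.07).

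Among 22 measured genes of peroxisomal oxidation outside the 30, 0 passed, and 2 higher and 1 lower had an unadjusted p under 0.05 (13.6%, against 8.62% of all probe sets). Abcd3, which imports acyl-CoA into peroxisomes, had 10.83, 10.80, 10.90 and 10.80 in GRBATKO mice, against 10.68, 10.63, 10.62 and 10.71 in control mice, with no overlap (difference 0.17, SE 0.07, limma adjusted p = 0.547). Its relative Abcd2 had 7.64, 7.70, 7.85 and 7.63 in GRBATKO mice, against 7.69, 7.17, 6.95 and 6.36 in control mice. Control 1 lay among the GRBATKO values and control 4 far below them; the Abcd2 difference was 0.66 (SE 0.23, limma adjusted p = 0.515) and 0.43 without control 4. Amacr, the racemase of branched-chain fatty acids, differed by -0.24 (SE 0.09).

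Of 17 measured regulators of the pathway 0 passed, with 1 higher and 2 lower at an unadjusted p under 0.05 (17.6%, against 8.62% of all probe sets). Ppard, the nuclear receptor PPAR delta, had 7.04, 7.17, 7.13 and 7.20 in GRBATKO mice, against 7.56, 7.40, 7.48 and 7.41 in control mice. GRBATKO mice all lay below control mice (difference -0.33, SE 0.07, 0.796-fold, limma adjusted p = 0.263), and the adjusted p ran from 0.0883 to 0.571 over the alternatives. The lowest value came from the fit with array row as a random block. Each row held mice of a single genotype and the block's consensus correlation was negative (-0.2276), so that fit may understate the p-value. Klf15, a transcription factor induced by glucocorticoids, differed by -0.55 (SE 0.21, limma adjusted p = 0.543), with control 1 at 6.32 among GRBATKO values of 6.17 to 6.55 and the other controls at 7.01 to 7.42; without control 1 it differed by -0.77. Tfam, a mitochondrial DNA transcription factor, differed by 0.22 (SE 0.08). Ppara and Pparg, the other PPAR receptors, differed by -0.03 (SE 0.16) and 0.0015 (SE 0.06), and the coactivator Ppargc1a by 0.07 (SE 0.26).

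Of 12 measured genes listed as PPAR targets outside the 30, 10 had a lower and 2 a higher mean, against 49.4% of all probe sets with a higher mean, and 0 had an unadjusted p under 0.05. The median of that list was -0.08. Fgf21, Cyp4a10, Cyp4a14, Vnn1 and Cpt1c, all among the lower means, had group means below the array medians of 4.42 to 4.44. No background level is known for them, so their share of the count may reflect little signal. Its members of smallest p were Creg1, a secreted glycoprotein, at -0.17 (SE 0.12), Vnn1, a pantetheinase, at -0.14 (SE 0.11) and Cpt1c, the brain form of the carnitine enzyme, at -0.08 (SE 0.07).

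**Figure D5:**
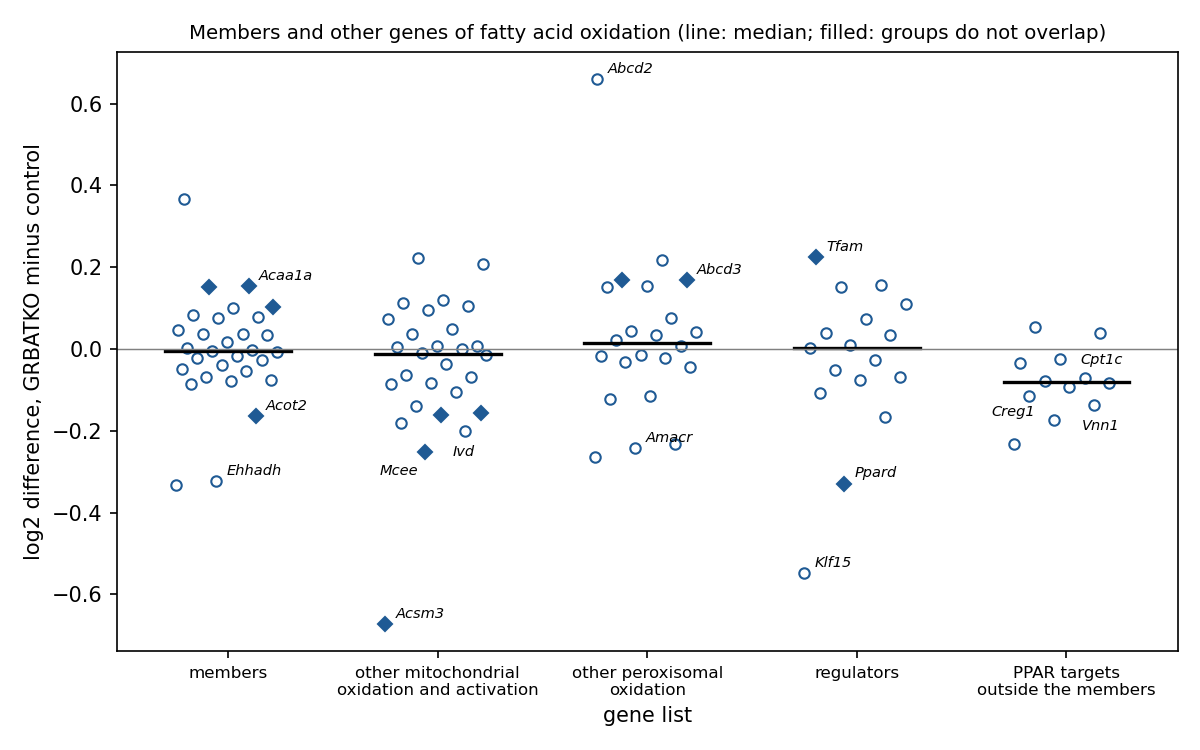
Difference in log2 intensity (GRBATKO minus control, vertical) for each gene of the 30 members and of the other pathway lists (horizontal); black lines are medians, filled diamonds groups that do not overlap, and the 3 genes of smallest p are named. Medians lie at 0.01 or nearer to 0 except for the PPAR targets at -0.08; Acsm3, Abcd2 and Klf15 lie farthest out.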

How the data were processed

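RNA of brown adipose tissue was hybridised to 8 arrays, 4 GRBATKO and 4 control. Per the submitters' processing notes the authors used RMA; the deposited table holds 1 linear intensity per probe set, and the sources used here give no version, genome build or background level. Values ran from 2.07 to 9168. Log2 was taken of the deposited intensities before any test. Probe sets are numbered by gene; the platform annotation named 20405 of 21115, and the other 710 were tested unnamed. 0 columns belonged to other samples.

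GRBATKO was compared with control by limma 3.58.1 in R 4.3.3 (lmFit, eBayes, genotype as the only term, 6 residual and 3.46 prior degrees of freedom) over all probe sets, with Benjamini-Hochberg adjustment and a threshold of 0.05. Single genes also had a two-sided exact permutation test over 70 arrangements (smallest p 0.0286). The number of arrays limits the precision.

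Genes, classes and lists were chosen with earlier results of these data known. Values per mouse were given for members with unadjusted p under 0.05, with groups that do not overlap, or with the highest intensity of their role; Nr3c1 was the check of the labels; other lists were named by their 3 genes of smallest p. Named after their values were seen, beyond this rule, were Pcca, Ppara, Pparg, Ppargc1a, Fgf21, Cyp4a10 and Cyp4a14. The per-mouse values of Cpt1b, Hadh, Acot1 and Acaa1b were also given. Alternatives were trend and robust priors, an unmoderated t, weights per array, a second quantile normalization, centring on medians, leaving out probe sets below the 40th percentile, blocks for replicate, column and row, a muscle covariate, and arrays left out; the genotype by column term was added after seeing the data. The pipeline was tested on simulated data. Figures used matplotlib 3.10.9; promoters came from RefSeq GRCm38.p6.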

Additional observations from a re-analysis of the deposited data

Results flagged for a closer look

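Hadh in GRBATKO 4 stood apart from its group, at a log2 intensity of 12.04 against 12.16 to 12.18 in the other 3 GRBATKO mice. Pcca in control 4 stood apart at 11.05, against 11.15 to 11.16 in the other 3 control mice. The gap of these samples exceeded Dixon's limit at the 95% level; 94 groups of 4 mice were examined, and chance alone marks about 1 in 20 such groups.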

How the results depend on the processing

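The count of fatty acid oxidation genes past the threshold was 0 under all 21 other fits, and 4 at an unadjusted p under 0.05. The count of all probe sets, 5 with limma, was 30 when the prior followed intensity, 22 with array row as a random block (consensus correlation -0.2276), 14 with dim probe sets left out, 8 after repeated quantile normalization, 3 without control 1 and control 4, 2 without control 3 and GRBATKO 4, 1 with the ordinary t statistic, 1821 at an unadjusted p under 0.05, and 3 to 5 with single arrays left out (3 without GRBATKO 2). Nr3c1 kept its direction in all of these fits, with an adjusted p of up to 0.157. The labels state no pairing by replicate number. Deviations of same-numbered mice correlated at -0.06 to 0.09, and 1 of 4 numbers correlated best with its own. These values show no pairing but cannot exclude that the mice were paired. With the number as a replicate block, 1 probe set passed and 0 of the 30 genes had an unadjusted p under 0.05, against 4 without the block. That count was also 0 without control 3, without control 3 and GRBATKO 4, and with muscle markers as covariate. The count was 1 without control 2, without control 4 or without any single GRBATKO mouse, and with array column as a term, and 5 without control 1. It was 6 with the trend prior, 5 with array weights or the row block, 3 with the robust prior, after repeated quantile normalization or without control 1 and control 4, and 2 after median centring. The genes counted also changed. Without control 1 and control 4 they were Acaa1b, Acot1 and Acot2, and Etfb, Acaa1a and Ehhadh were no longer among them.

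The median of the peroxisomal genes was 0.0596 without control 1 and control 4, and 0.07 to 0.12 with single arrays left out; that of the mitochondrial genes was -0.0095 to 0.02. Direction was the same in every fit for 17 of the 30 genes, Acot2, Etfb, Acaa1a, Acaa1b, Ehhadh, Hsd17b4 and Acot1 among them. Sign changed in the following cases, of which Acsf2, Ppara and Ppargc1a passed 0.1 in size after the change. With array weights they were Acadvl at -0.0042, Hadha at 0.0042 and Ppargc1a at -0.0135. After repeated quantile normalization they were Cpt2 at -0.0077, Acad10 at -0.0136, Decr1 at -0.0037 and Pparg at -0.001. After median centring they were Hadha at 0.0025, Etfa at 0.0011 and Etfdh at 0.0051. With the muscle covariate they were Ppara at 0.0225 and Pparg at -0.0032. Without control 1 and control 4 they were Acadl at -0.0135, Acadvl at -0.0402, Hadha at 0.0068, Acsf2 at 0.1024, Vnn1 at 5e-04, Pparg at -0.0318 and Ppargc1a at -0.1143. Without control 3 and GRBATKO 4 they were Acad10 at -0.0174, Etfa at 0.0083, Etfdh at 8e-04, Eci2 at 0.001 and Ppara at 0.0286. With single arrays left out the ranges were -0.0049 to 0.0746 for Acad10, -0.0035 to 0.0796 for Acadl, -0.0325 to 0.0214 for Acadvl, -0.1611 to 0.0142 for Cpt1b, -0.0311 to 0.0021 for Decr2, -0.0643 to 0.0049 for Eci2, -0.0279 to 0.0242 for Etfa, -0.033 to 0.0416 for Etfdh, -0.0291 to 0.0109 for Hadha, -0.0881 to 0.0112 for Mlycd, -0.11 to 0.1205 for Ppara, -0.0138 to 0.0239 for Pparg and -0.0621 to 0.3109 for Ppargc1a. The cause of these changes was not tested beyond the arrays left out.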
